A study of Mus musculus with 6 samples.

Results

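The circadian clock genes followed here are 10 genes of the core loop, chosen by symbol from the 21878 gene symbols of the expression table: the activators Arntl (also called Bmal1) and Clock, the repressors Per1, Per2, Per3, Cry1 and Cry2, the REV-ERB genes Nr1d1 and Nr1d2, and the output gene Dbp. Their RNA was compared between HT22 cells, an immortalized line derived from mouse hippocampal neurons, that had received 120 µM aluminum maltolate for 24 h (Al group) and cells that had not (control group), with 3 libraries in each group. The libraries were the inputs of an m6A immunoprecipitation experiment, that is, fragmented RNA before enrichment. The study's methods name a control in medium alone and a maltol control, and they do not say which was sequenced. The submitters call the libraries of a group biological replicates without saying whether each came from its own culture, so the P values below measure the spread between these libraries. Each group was collected at 1 time, with no time of day and no synchronising step named in the sources used here. A change in the mean level of a clock gene, in the phase of its rhythm and in the height of that rhythm therefore cannot be told apart.

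In mammalian cells the clock is a feedback loop of transcription. The proteins CLOCK and BMAL1 bind E-box elements as a pair and switch on the Per and Cry genes, whose products enter the nucleus and stop that pair, until casein kinases and ubiquitin ligases remove them. CLOCK and BMAL1 also switch on Nr1d1, Nr1d2 and Dbp. The REV-ERB proteins made from Nr1d1 and Nr1d2 close another loop by repressing Arntl at ROR elements, where the ROR proteins activate it, and DBP activates genes through D-box elements. Nearly all tissues run this loop, including hippocampal neurons, and Per1 and Per2 also respond directly to growth factors, cyclic AMP and glucocorticoids.

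The reference sequence of the promoters was searched for the letters of these elements. RefSeq windows on GRCm38.p6, each from 250 bases before to 50 bases after a transcription start, were at hand for 9 of the 10 genes in 13 windows, with none for Per2. The bases before the start are shown for 4 of the genes whose windows held a match. The sequences run 5′ to 3′ on the strand of the gene, with each match in capitals.
Nr1d1, chr11:98775378-98775627, minus strand: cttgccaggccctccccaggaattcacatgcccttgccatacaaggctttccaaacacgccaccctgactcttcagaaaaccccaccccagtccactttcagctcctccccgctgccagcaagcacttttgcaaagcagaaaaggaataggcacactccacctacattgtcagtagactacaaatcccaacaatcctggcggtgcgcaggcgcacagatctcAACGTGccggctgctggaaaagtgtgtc
Arntl, chr7:113207215-113207464, plus strand: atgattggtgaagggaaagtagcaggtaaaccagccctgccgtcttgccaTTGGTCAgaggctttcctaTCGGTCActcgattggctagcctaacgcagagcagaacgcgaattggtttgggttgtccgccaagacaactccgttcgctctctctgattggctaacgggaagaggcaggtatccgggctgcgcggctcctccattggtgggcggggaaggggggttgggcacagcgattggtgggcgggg
Per3, chr4:151044666-151044915, minus strand: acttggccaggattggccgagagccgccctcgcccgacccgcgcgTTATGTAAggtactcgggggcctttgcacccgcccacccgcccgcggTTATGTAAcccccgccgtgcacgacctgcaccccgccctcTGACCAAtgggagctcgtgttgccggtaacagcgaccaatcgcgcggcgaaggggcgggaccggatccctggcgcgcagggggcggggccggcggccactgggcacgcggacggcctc
Cry1, chr10:85185055-85185304, minus strand: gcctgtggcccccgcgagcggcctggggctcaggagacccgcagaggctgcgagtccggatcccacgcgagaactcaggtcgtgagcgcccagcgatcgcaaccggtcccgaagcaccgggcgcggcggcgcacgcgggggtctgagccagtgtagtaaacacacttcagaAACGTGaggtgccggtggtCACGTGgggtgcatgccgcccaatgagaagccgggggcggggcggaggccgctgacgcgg

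In the window of Nr1d1 the capitals mark AACGTG, the reverse strand of the E-box variant CACGTT, from 28 bases before the start. The Arntl window holds 2 cores of the ROR element, TTGGTCA from 200 and TCGGTCA from 181 bases before the start, and another Arntl start 46 bases downstream has a further core, TAGGTCA, beginning at base 31 after it. In Per3 the capitals are 2 D-box elements TTATGTAA, from 205 and 158 bases before the start. They also mark TGACCAA, a match to TNGGTCA on the reverse strand, from 118 bases before the start. Cry1 carries the E-box CACGTG from 60 bases and the variant, again on the reverse strand, from 79 bases before its start. Of 2 Per1 windows, 1 held a CACGTG from 166 bases before its start. The Cry2 window held the variant and a match to TNGGTCA. The windows of Clock, Dbp and Nr1d2 held no match. Over all 32851 windows of this length, searched on both strands, CACGTG was in 7.15%, CACGTT in 4.68% and the D-box TTANGTAA in 2.32%. The loose pattern TNGGTCA was in 11.0%. The cyclic AMP response element TGACGTCA was in 1.79%, and in no window of the 9 clock genes that had one. A match describes these letters only, and no binding was measured.

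The 3 control libraries held 37659399, 42959412 and 44065727 reads on genes, and the 3 Al libraries held 26375147, 21606460 and 20888963, as recovered from the steps between the deposited FPKM values (fragments scaled to the length of the gene and to the depth of the library). All 10 genes were above 0 in all 6 libraries, and all 10 passed the filter of a mean of 0.1 FPKM. The lowest number of reads behind any of their values was 155, for Arntl in Al replicate 1, counted up to a common divisor, so that every such number is a lower limit. Levels are given below as deposited. Fold changes were fitted by limma on log2 values after the libraries had been brought to one scale by median-of-ratios size factors, and they are on the scale of log2(scaled FPKM + 0.1), which understates the change of low genes. A gene was called higher or lower when its log2 fold change exceeded 0.58 in size and its P, before adjustment, was under 0.05. The adjusted P is the Benjamini-Hochberg value over all 12889 genes tested.

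The treated cells held more RNA of both REV-ERB genes, of Dbp and of Per2, and less of Per3, whereas no call was made for Arntl, Clock, Per1, Cry1 or Cry2. These 5 calls among 10 genes came from a table in which 50.6% of the tested genes were called, so the number of calls was close to that over all genes. By direction, 4 clock genes were higher against 26.2% of all genes, and 1 was lower against 24.4%. The 3 control and 3 Al libraries did not overlap after scaling for 5 of the 10 genes, against 68.1% of all genes. These were the 4 genes called higher and, below, Cry2, which was not called, while Per3 overlapped. The median log2 fold change of the 10 genes was 0.33 and that of all tested genes 0.03. By size, Nr1d1 ranked 19 from the highest log2 fold change of 12889 genes, Dbp ranked 118 and Per2 ranked 200, while Nr1d2 ranked 2005.

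**Figure D1:**
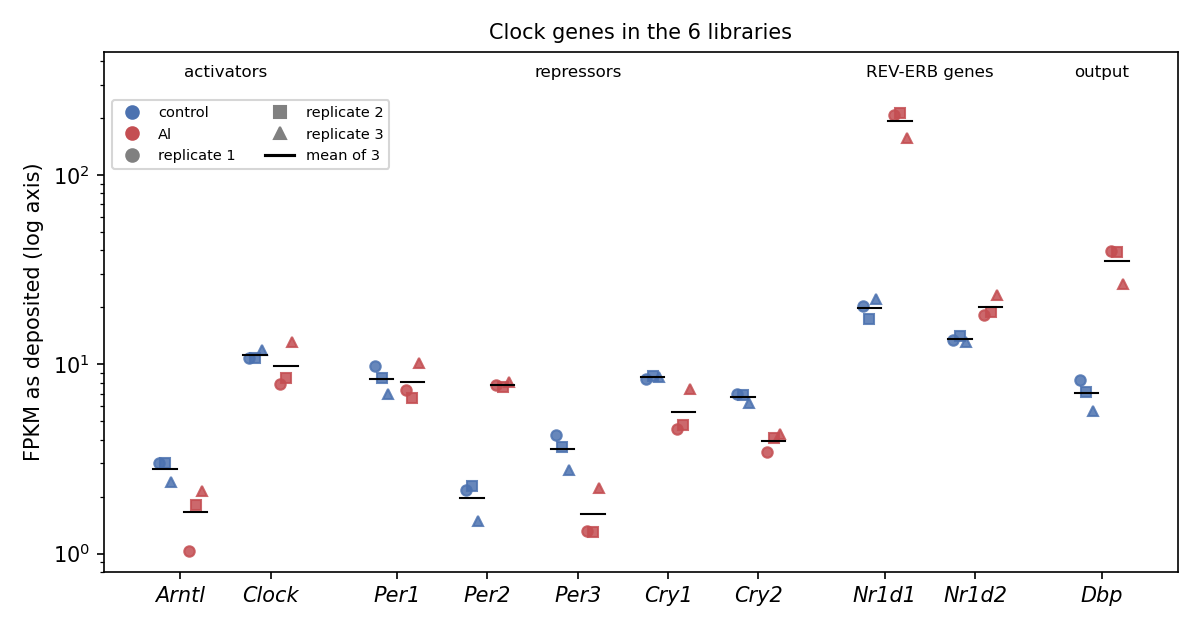
FPKM as deposited (log axis) of the 10 clock genes, grouped by role, in the 3 control and 3 Al libraries. Circles, squares and triangles are replicates 1, 2 and 3, and bars are means of 3. Nr1d1 in the Al libraries, at 157.7 to 213.4, stands above every other point, and Per2 and Dbp are the other genes with a wide gap between the groups.

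Arntl, on chromosome 7 from 113207465 to 113314126 (GRCm38, plus strand), encodes BMAL1, the activator without which the loop stops. Its level was 2.995, 3.018 and 2.382 FPKM in the control libraries and 1.033, 1.814 and 2.146 FPKM in the Al libraries, means of 2.80 ± 0.360 and 1.67 ± 0.571 (SD, n = 3). As deposited, the groups lay apart with the Al group below, but after scaling they overlapped. The log2 fold change was -0.30 (SE 0.239, 95% interval -0.85 to 0.24, adjusted P = 0.296), and quantile normalization turned it to 0.02. On FPKM as deposited Arntl was called lower, at -0.77, and on TPM at -1.05, so the call for this gene rested on the scaling. Without Al replicate 1, the lowest library, the value was -0.041. Its reads numbered 597 to 737 in the control libraries and 155 to 255 in the Al libraries. Gm45355, an antisense gene on the opposite strand, covers 118 of its 7523 exon bases.

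Clock, on chromosome 5 from 76209868 to 76304792 (minus strand), encodes the partner of BMAL1, and its RNA is known to cycle little in most tissues. It was read at 10.85, 10.85 and 11.91 FPKM in control and at 7.901, 8.515 and 13.09 FPKM in Al. The range of the Al libraries enclosed that of the control libraries, and Al replicate 3 was the highest of all 6. The log2 fold change of 0.26 (SE 0.147, interval -0.07 to 0.60, adjusted P = 0.150) was not called, and it turned to -0.22 on FPKM as deposited and to -0.52 on TPM. The interval spans 0 and does not show that the level of Clock was equal in the groups.

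Per1, on chromosome 11 from 69095217 to 69109960 (plus strand), encodes a repressor that partners the CRY proteins and is also an immediate response gene. The control libraries had 9.770, 8.513 and 6.959 FPKM and the Al libraries 7.291, 6.606 and 10.19 FPKM, and the groups overlapped. Its log2 fold change of 0.40 (SE 0.159, interval 0.04 to 0.77, adjusted P = 0.0528) stayed under the fold threshold, and it turned to -0.08 on FPKM as deposited and to -0.37 on TPM.

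Per2, on chromosome 1 from 91415982 to 91459324 (minus strand), encodes another PER repressor, which scaffolds the complex with CRY and casein kinase. It was at 2.160, 2.275 and 1.495 FPKM in control and at 7.787, 7.583 and 8.058 FPKM in Al. Every Al library was thus above 7 FPKM and every control library under 3 FPKM, with means of 1.98 ± 0.421 and 7.81 ± 0.238 (SD, n = 3). Scaled, the difference was a log2 fold change of 2.42 (SE 0.171, interval 2.03 to 2.81, 5.36-fold, adjusted P = 1.445e-05). Per2 lay above 25.7%, 25.8% and 23.2% of the tested genes in the 3 control libraries and above 59.0%, 58.1% and 56.3% in the Al libraries. The reads behind it rose in number although the Al libraries were shallower, from 402 to 596 in control to 1000 to 1253 in Al.

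Per3, on chromosome 4 from 151003652 to 151044665 (minus strand), encodes a PER protein that is not needed for the rhythm to run. Its level was 4.250, 3.652 and 2.760 FPKM in control and 1.312, 1.307 and 2.223 FPKM in Al. The deposited values did not overlap, with control replicate 3 and Al replicate 3 nearest to each other, and the scaled values overlapped. The log2 fold change was -0.65 (SE 0.221, interval -1.15 to -0.14, adjusted P = 0.0305). Per3 was the single gene called lower among the 10. The call was lost when control replicate 1 (-0.52), Al replicate 1 (-0.56) or Al replicate 2 (-0.54) was left out, and under quantile normalization (-0.31). All 9608 exon bases of Per3 lie inside Camta1 on the same strand, a gene at 0.16 to 0.66 FPKM whose log2 fold change of -0.56 was not called. The part of Camta1 in the values of Per3 was not tested.

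Cry1, on chromosome 10 from 85131700 to 85185064 (minus strand), and Cry2, on chromosome 2 from 92403646 to 92434043 (minus strand), encode the cryptochromes, the proteins that block CLOCK and BMAL1. Cry1 was at 8.349, 8.688 and 8.537 FPKM in control and at 4.555, 4.789 and 7.432 FPKM in Al. Cry2 was at 6.981, 6.916 and 6.271 FPKM in control and at 3.444, 4.103 and 4.291 FPKM in Al. Both were lower in every Al library as deposited, and the scaling took up most of that difference. After it, Cry1 had a log2 fold change of -0.15 (SE 0.147, interval -0.49 to 0.18, adjusted P = 0.384), which quantile normalization turned to 0.04. Cry2 had one of -0.28 (SE 0.124, interval -0.56 to 0.0019, adjusted P = 0.0772), which quantile normalization brought to -0.029, and its groups lay apart with Al below. Neither was called, whereas on FPKM as deposited both were called lower, at -0.63 for Cry1 and -0.76 for Cry2. D930015M05Rik lies on the opposite strand over 3829 of the 6320 exon bases of Cry2.

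Nr1d1, on chromosome 11 from 98767932 to 98775333 (minus strand), encodes REV-ERBα, a heme-binding nuclear receptor that recruits the NCoR and HDAC3 corepressor to ROR elements. It was at 20.40, 17.32 and 22.07 FPKM in control and at 206.8, 213.4 and 157.7 FPKM in Al. The lowest Al library was thus far above the highest control library, and the means were 19.9 ± 2.41 and 192.6 ± 30.4 (SD, n = 3). The log2 fold change was 3.75 (SE 0.183, interval 3.33 to 4.16, 13.4-fold, adjusted P = 4.683e-06). Nr1d1 was above 73.0%, 68.5% and 74.6% of the tested genes in the control libraries and above 97.5%, 97.7% and 97.3% in the Al libraries. It rested on 2079 to 2719 reads in control and 9213 to 15247 in Al.

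Thra, which encodes a thyroid hormone receptor, runs on the opposite strand and ends across the end of Nr1d1, so that 488 of the 3077 exon bases of Nr1d1 lie within it. The library kit keeps the strand, but whether the counting used it is not given in the sources used here, so reads of the overlap could belong to either gene. Thra was at 25.45, 25.49 and 23.18 FPKM in control and at 39.01, 39.49 and 31.53 FPKM in Al, and its log2 fold change of 1.05 was called higher, though not on FPKM as deposited (0.56) or on TPM (0.26). The part of the overlap in the values of Nr1d1 was not tested.

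Nr1d2, on chromosome 14 from 18204054 to 18239127 (minus strand), encodes REV-ERBβ, the other receptor of the pair. Its libraries read 13.38, 14.09 and 13.19 FPKM in control and 18.19, 18.94 and 23.20 FPKM in Al, and the groups lay apart. The log2 fold change was 1.04 (SE 0.0909, interval 0.84 to 1.25, 2.06-fold, adjusted P = 3.259e-05). It was not called on FPKM as deposited (0.56) or on TPM (0.26), where its direction was the same.

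Dbp, on chromosome 7 from 45705088 to 45710203 (plus strand), encodes a PAR bZIP activator of D-box genes and is a direct target of CLOCK and BMAL1. It was at 8.296, 7.180 and 5.662 FPKM in control and at 39.89, 39.45 and 26.42 FPKM in Al, means of 7.05 ± 1.32 and 35.3 ± 7.65 (SD, n = 3). The groups lay far apart, and replicate 3 was the lowest in both of them. The log2 fold change was 2.78 (SE 0.225, interval 2.27 to 3.30, 6.88-fold, adjusted P = 2.424e-05). Dbp overlaps Sphk2, a sphingosine kinase gene on the opposite strand, by 539 of its 2993 exon bases. Sphk2 read 8.76, 8.38 and 8.89 FPKM in control and 16.45, 15.61 and 15.25 FPKM in Al, with a log2 fold change of 1.34 that was called higher, though not on TPM (0.56), and its part in the values of Dbp was not tested.

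**Figure D2:**
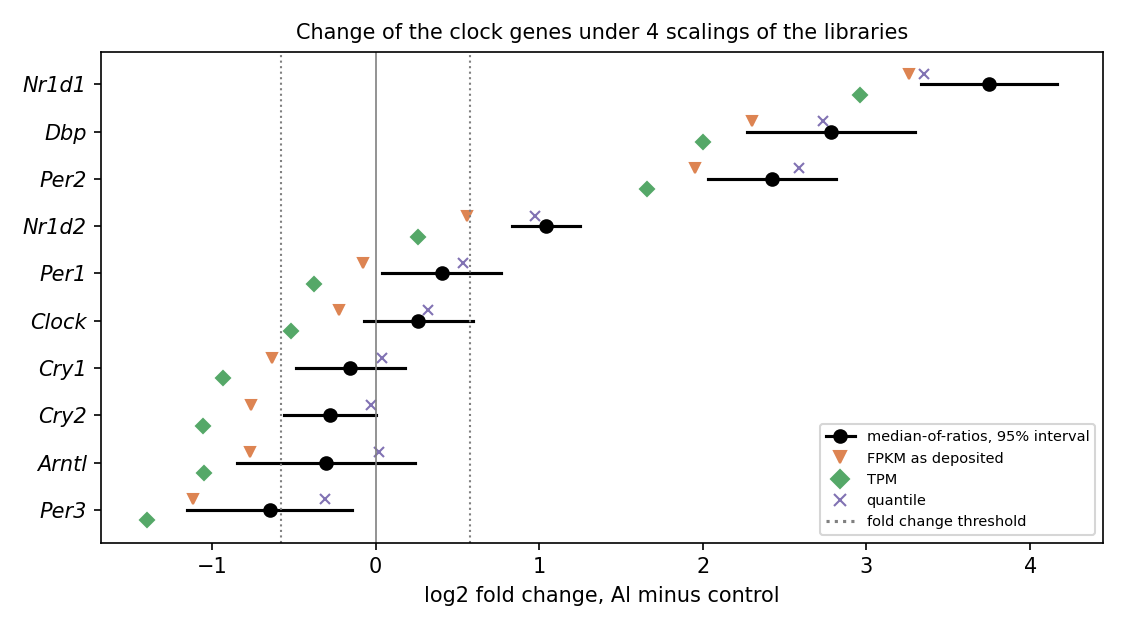
Log2 fold change of each clock gene, Al minus control, under 4 scalings of the libraries. Black points are the values after median-of-ratios scaling with 95% intervals, other symbols are FPKM as deposited, TPM and quantile normalization, and dotted lines mark a log2 fold change of 0.58 in either direction. Nr1d1, Dbp and Per2 stay past the upper line under all 4 scalings, while Per1, Clock, Cry1 and Arntl have symbols on both sides of 0.

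The smaller changes depended on how the libraries were scaled to each other. The FPKM of a library summed to 361083 to 385447 in control and to 428696 to 479075 in Al. On FPKM as deposited the median over all tested genes was -0.43 (log2 fold change), with 1805 genes called higher and 5417 lower. On TPM, where each library sums to the same total, the median was -0.72, with 1200 higher and 6843 lower. After median-of-ratios scaling the calls were 3375 higher and 3143 lower, 51.8% of them higher, against 25% on FPKM as deposited, 14.9% on TPM and 47.9% after quantile normalization. Across all 18 alternatives Nr1d1 ranged from 2.96 to 3.96, Dbp from 2.0 to 3.06 and Per2 from 1.66 to 2.59, and these 3 genes were called higher in each.

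A ratio of 2 genes within a library does not depend on a factor shared by all its genes, as in the median-of-ratios scaling and TPM. This holds only when no constant is added. For the clock gene ratios here 0.1 was added to each FPKM first, so such a factor does not cancel fully. Quantile normalization is no such factor and was not applied to the ratios. The 6 pairs chosen were compared by a two-sided exact permutation test of the log2 ratios, for which 0.1 is the smallest P that 3 against 3 libraries can give, so that no pair could pass 0.05. Nr1d1 exceeded Arntl, the gene its product represses, 6.62, 5.59 and 8.93 times in control and 183, 112 and 70.3 times in Al. The groups did not overlap, and the ratio was 16.3-fold higher in Al (log2 difference 4.03, means 2.79 ± 0.343 and 6.82 ± 0.689 on the log2 scale, exact permutation P = 0.1, adjusted over 6 pairs 0.15). Dbp to Arntl was 2.71, 2.33 and 2.32 in control and 35.3, 20.7 and 11.8 in Al, an 8.37-fold difference, also with no overlap. Within the REV-ERB pair, Nr1d1 to Nr1d2 went from 1.52, 1.23 and 1.67 in control to 11.3, 11.2 and 6.77 in Al, 6.51-fold more, again without overlap. The REV-ERB genes thus moved in the same direction by unequal amounts.

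Among the repressors, Per1 to Per2 was 4.37, 3.63 and 4.42 in control and 0.937, 0.873 and 1.26 in Al. The control cells therefore held several times more Per1 than Per2 RNA per length, and the Al cells about equal levels, with a log2 difference of -2.03 and no overlap. These 3 pairs, like the first, had an exact permutation P = 0.1 and an adjusted P = 0.15. The other ratios overlapped. Cry1 to Cry2 was 1.19, 1.25 and 1.36 in control and 1.31, 1.16 and 1.72 in Al (log2 difference 0.12, exact permutation P = 0.7), and the sign of this difference turned without Al replicate 3. Clock to Arntl was 3.54, 3.51 and 4.84 in control and 7.06, 4.50 and 5.87 in Al (log2 difference 0.54, exact permutation P = 0.2, adjusted 0.24).

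**Figure D3:**
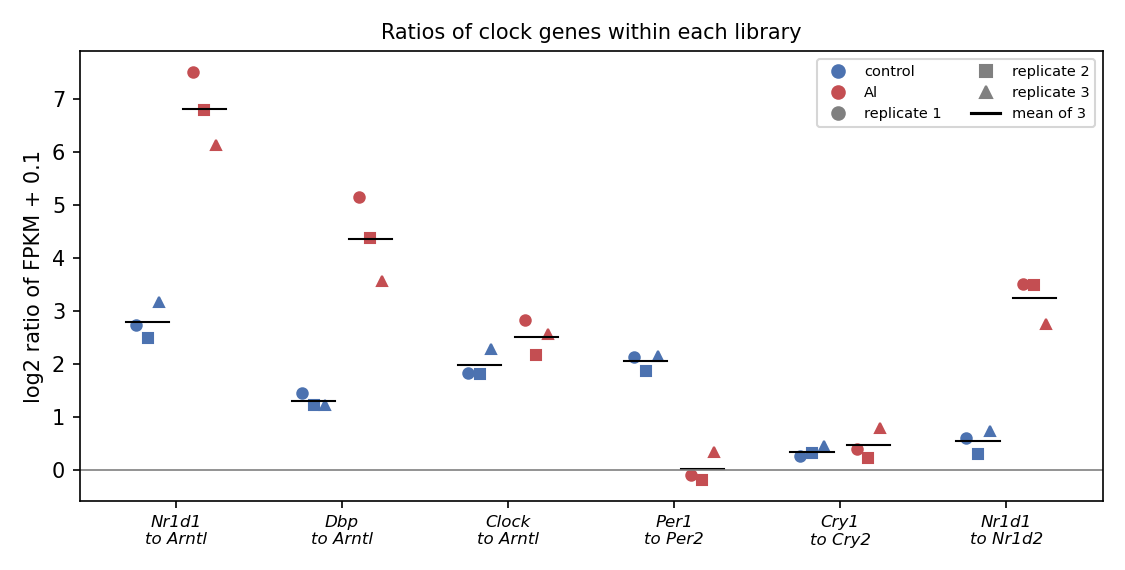
Log2 of the ratio of 2 clock genes within each library (FPKM + 0.1) for 6 pairs. Blue points are control and red points Al libraries, symbols are replicates and bars are means of 3. In 4 pairs the groups do not overlap, with Nr1d1 to Arntl the widest apart, and in Clock to Arntl and Cry1 to Cry2 they do.

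The order of the levels per length changed with these genes. In control it ran Nr1d1, Nr1d2, Clock, Cry1, Per1, Dbp, Cry2, Per3, Arntl and Per2. Neighbours from Cry1 through Cry2, and Per3 with Arntl, had overlapping ranges. In Al it ran Nr1d1, Dbp, Nr1d2, Clock, Per1, Per2, Cry1, Cry2, Arntl and Per3, with overlapping ranges among Clock, Per1 and Per2 and between Arntl and Per3. Nr1d1 alone made up 23.8% ± 3.12 of the summed FPKM of the 10 genes in control and 67.0% ± 4.38 in Al (SD, n = 3).

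Per2, last of the 10 in control, was the sixth in Al, and Dbp went from the sixth place to the second. The share of Per2 in that sum was 2.36% ± 0.469 in control and 2.75% ± 0.364 in Al.

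The other genes of the clock were described from a list of 55, made up of loop partners, PAR bZIP genes, enzymes that modify or remove clock proteins, cofactors and outputs. Of these, 46 passed the filter, with 17 called higher and 6 lower, a share that again was close to the 50.6% of all genes. On FPKM as deposited 8 were called higher and 17 lower, and on TPM 6 and 19, so the balance of directions turned with the scaling. Their median log2 fold change was 0.32, with a range from -2.17 to 2.09.

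Of the 4 loop partners tested, 3 were called higher, where 26.2% of all genes were. Bhlhe40 and Bhlhe41 encode DEC1 and DEC2, E-box repressors that compete with CLOCK and BMAL1. Bhlhe40 read 25.91, 22.91 and 29.69 FPKM in control and 42.31, 42.49 and 44.67 FPKM in Al, apart in all libraries (log2 fold change 1.21, SE 0.12, adjusted P = 5.701e-05), although the call was lost on TPM (0.43). Bhlhe41 was rare, at 0.0770 to 0.188 FPKM in control and 0.441 to 0.716 FPKM in Al (1.93, SE 0.337, adjusted P = 0.001196). Ciart, which encodes the repressor CHRONO, read 0.847, 1.254 and 0.881 FPKM in control and 2.917, 3.136 and 3.560 FPKM in Al (2.07, SE 0.188, adjusted P = 3.98e-05).

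Rora and Rorb, which encode activators of ROR elements, were scarce. Rora was at no more than 0.0212 FPKM in any library and Rorb was listed at 0 in all 6, which allows up to 3 expected reads in each, counting error only. Npas2, which can stand in for CLOCK, was at no more than 0.0335 FPKM and was left out by the filter. Timeless averaged 12.83 FPKM in control and 7.68 FPKM in Al and was not called (-0.27). On FPKM as deposited and on TPM, 1 loop partner was called lower.

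Both D-box genes tested beside Dbp had positive log2 fold changes, apart from Nfil3 on TPM, and 1 was called higher, where 26.2% of all genes were. Tef, the PAR bZIP activator most abundant here, rose from 18.73, 16.87 and 14.96 FPKM in control to 50.92, 54.54 and 48.69 FPKM in Al, with no overlap (log2 fold change 2.09, SE 0.127, adjusted P = 8.611e-06). Hlf, the third activator of that family, stayed under 0.12 FPKM in every library and was not tested. Nfil3, which encodes the repressor E4BP4 of the same D-box elements, read 9.509, 10.69 and 11.45 FPKM in control and 10.97, 9.507 and 11.80 FPKM in Al. Its log2 fold change of 0.51 (SE 0.116, adjusted P = 0.00476) did not reach the fold threshold, was 0.027 on FPKM as deposited and turned to -0.27 on TPM.

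Of 15 tested enzymes that phosphorylate, dephosphorylate, ubiquitinate or deubiquitinate clock proteins, 6 were called higher and 2 lower, a share near the 50.6% called over all genes, with a median log2 fold change of 0.37. On FPKM as deposited the counts were 0 higher and 4 lower, on TPM 0 and 5, and after quantile normalization 3 and 3, so the balance of directions in this list depended on the scaling. Csnk1d, casein kinase 1δ, which marks PER proteins for removal, read 65.07, 58.72 and 62.88 FPKM in control and 86.76, 92.90 and 98.77 FPKM in Al (log2 fold change 1.06, SE 0.0989, adjusted P = 4.376e-05), a call that was lost on FPKM as deposited (0.58), TPM (0.28) and quantile normalization (0.57). Csnk2a1, a catalytic subunit of casein kinase 2, went the other way, from 27.21, 26.45 and 24.79 FPKM in control to 7.617, 8.038 and 11.61 FPKM in Al (-1.06, SE 0.122, adjusted P = 0.0001291). The other calls were Csnk2b, Csnk1a1, Usp7, Ppp2ca and Fbxw11, higher by 0.74 to 0.98 but with none of them called on FPKM as deposited or on TPM, and Gsk3b, lower (-0.94).

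Of 15 cofactors, 2 were called higher and 3 lower, 33.3% against the 50.6% called over all genes, and the median was -0.11. On FPKM as deposited 0 were higher and 8 lower, on TPM 0 and 9, and 1 was higher without control replicate 2 or Al replicate 2. Tbl1xr1, a subunit of the NCoR and HDAC3 complex through which REV-ERB proteins repress, read 13.73, 12.68 and 9.673 FPKM in control and 1.738, 1.312 and 2.609 FPKM in Al (log2 fold change -2.17, SE 0.213, adjusted P = 5.48e-05). Kat2b, an acetyltransferase that works with CLOCK and BMAL1, read 18.03, 18.91 and 16.78 FPKM in control and 3.599, 3.712 and 7.078 FPKM in Al (-1.47, SE 0.194, adjusted P = 0.0002619). The groups lay apart for both genes. The remaining calls were Sin3a (-0.98), lower, and Sfpq (0.83) and Sirt1 (0.62), higher. Ppargc1a, which encodes the coactivator PGC-1α, read 7.983, 7.046 and 6.397 FPKM in control and 3.383, 3.441 and 4.587 FPKM in Al. Its groups lay apart with Al below, and its log2 fold change of -0.42 (SE 0.136, interval -0.73 to -0.11, adjusted P = 0.0243) was under the fold threshold in size. It was called lower on FPKM as deposited (-0.90) and on TPM (-1.19), so this call too rested on the scaling.

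Of 14 output genes 10 were tested, with 5 called higher and 1 lower and a median of 0.68, where 26.2% of all genes were called higher and 24.4% lower. The counts were 4 and 4 on FPKM as deposited and 3 and 4 on TPM. Klf10, a zinc finger repressor under clock control in liver, read 10.26, 9.769 and 9.080 FPKM in control and 27.30, 26.56 and 20.57 FPKM in Al (log2 fold change 1.82, SE 0.164, adjusted P = 3.698e-05). Cdkn1a, which encodes the cell cycle inhibitor p21 and is also a target of p53, read 107.2, 106.5 and 151.4 FPKM in control and 255.9, 310.5 and 223.1 FPKM in Al (1.61, SE 0.209, adjusted P = 0.0002382). Noct (1.39), Tspo (1.24) and Wee1 (1.02) were also higher, and Nampt was lower (-0.61). The count of lower calls was 0 without control replicate 3 or Al replicate 1 and 2 without Al replicate 3, and it held in 6 of 18 alternatives.

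**Figure D4:**
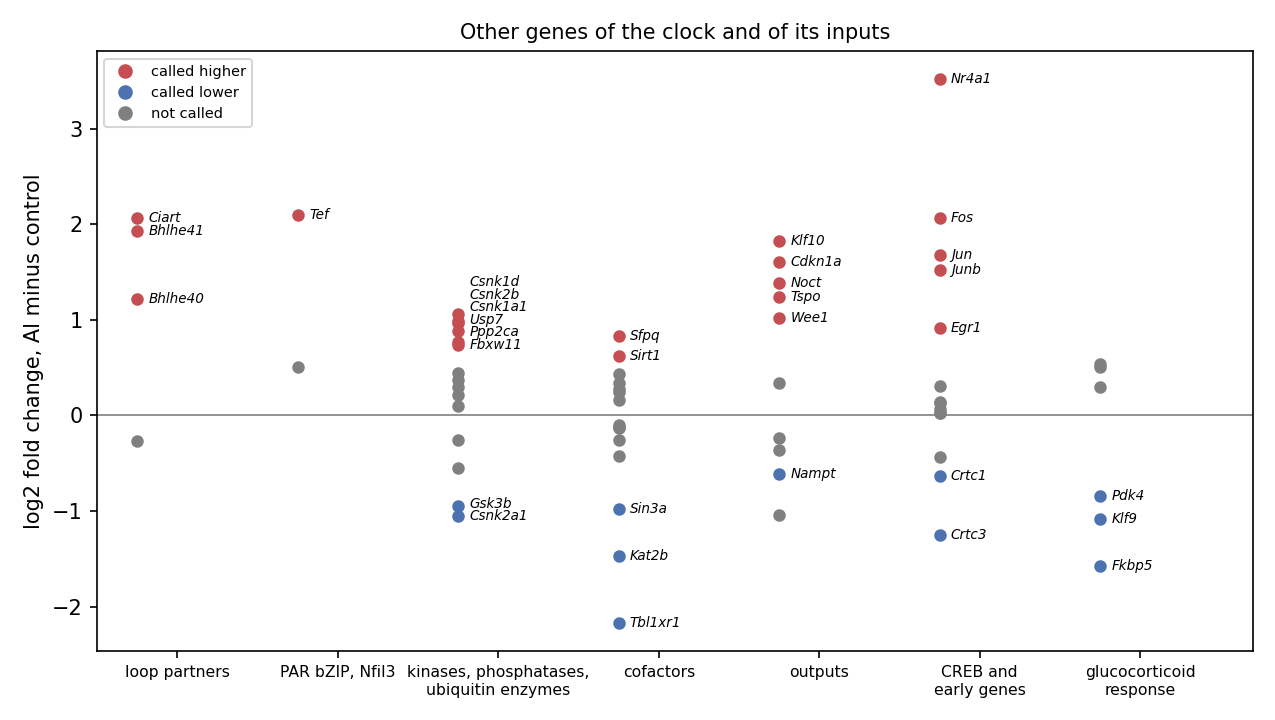
Log2 fold change (Al minus control) of the tested genes of the clock outside the 10 core genes and of signal inputs, by list, with called genes named. Red is called higher, blue called lower and grey not called. Tef, Ciart and Nr4a1 are among the highest points, and Tbl1xr1 is the lowest at -2.17.

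Signals from outside reach the clock through cyclic AMP and through glucocorticoids, and lists for both were read beside the clock genes. Of 14 genes of the CREB pathway and early response, 5 were called higher and 2 lower, with a median of 0.14. That is 7 calls of 14, near the 50.6% over all genes, and on TPM the counts were 4 higher and 7 lower, while without Al replicate 1 the lower calls numbered 1. Nr4a1, an orphan nuclear receptor, read 2.379, 2.076 and 2.692 FPKM in control and 15.98, 24.37 and 21.43 FPKM in Al (log2 fold change 3.52, SE 0.174, adjusted P = 4.683e-06). Fos, a subunit of AP-1, read 2.712, 2.113 and 2.241 FPKM in control and 6.951, 8.503 and 6.446 FPKM in Al (2.06, SE 0.182, adjusted P = 3.472e-05). Jun (1.67), Junb (1.52) and Egr1 (0.92) were higher too, and the coactivator genes Crtc3 (-1.25) and Crtc1 (-0.63) were lower.

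Of 6 tested genes of the glucocorticoid response, 0 were called higher and 3 lower by limma, and the same numbers by voom on the recovered reads, with a median of -0.27. These 3 calls of 6 were again near the 50.6% called over all genes. At an unadjusted P under 0.05 with no fold threshold, 2 were higher and 3 lower, and 1 was called higher without Al replicate 3 or after quantile normalization. Fkbp5, a chaperone of the glucocorticoid receptor and itself its target, read 19.88, 20.35 and 21.11 FPKM in control and 4.740, 4.994 and 4.826 FPKM in Al (log2 fold change -1.57, SE 0.108, adjusted P = 1.394e-05). Klf9 read 38.07, 40.13 and 42.43 FPKM in control and 11.88, 13.15 and 15.80 FPKM in Al (-1.08, SE 0.0982, adjusted P = 3.945e-05), and Pdk4 was also lower (-0.84). The part of these inputs in the levels of Per2 and the other clock genes was not tested.

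Most markers of neurons, the cell type in the labels, were at or near 0. Of 10 neuron markers, 2 passed the filter, Tubb3 and Syp, and 0 were called by limma or by voom, with 0 at an unadjusted P under 0.05 and 1 called lower on FPKM as deposited and on TPM. Snap25 and Nefm were listed at 0 in all 6 libraries, Map2 in 5 of them, and Rbfox3, Dcx, Nefl, Stmn2 and Syt1 were under 0.1 FPKM. The summed level of the neuron markers was 5.48 to 5.84 FPKM in control and 2.73 to 4.17 FPKM in Al, nearly all of it Tubb3, and that of 12 glia markers was 1.04 to 1.68 FPKM in control and 1.12 to 1.99 FPKM in Al. Of 5 glia markers tested, 1 was called higher, against 26.2% of all genes. It was Cx3cr1 (2.14), with 6 to 13 reads in control and 31 to 75 in Al, and there were 2 higher calls without Al replicate 1 or Al replicate 2. Aif1, the other microglial marker tested, was at 0.502 to 0.985 FPKM in control and 0.219 to 0.460 FPKM in Al and was not called (-0.71), nor were S100b (-0.66), Mog (1.08) and Aldh1l1 (0.088). The lower calls among glia markers numbered 0 by limma and by voom, with 0 at an unadjusted P under 0.05. They numbered 2 on FPKM as deposited, on TPM, after quantile normalization and by limma without the trend, and 1 with no filter, without control replicate 3 or without Al replicate 3. The defining genes Aqp4 and P2ry12 were listed at 0 in all libraries. These are bulk samples, in which fewer cells that express a gene and less of its RNA per cell cannot be told apart.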

How the data were processed

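RNA from 3 control and 3 Al input libraries was sequenced as read pairs from a stranded mRNA kit. The study's methods name Trimmomatic, SortMeRNA and HISAT2 on GRCm38/mm10, the submitters' processing notes name fastp, HISAT2, HTSeq and GRCm39, and the series' design text names another genome, so the build behind the values is uncertain. The authors deposited a table of FPKM, with a value for each symbol in each library and no further scaling. The program that gave the FPKM and its strand setting are not given in the sources used here. The treated libraries carry the letter M in their labels and were taken as the Al group, since the series has 1 treated group. Coordinates are from GENCODE M21 on GRCm38 and were used for position only. Immunoprecipitated libraries were not analysed here. The thresholds for a call follow the methods of the study.

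FPKM were divided by median-of-ratios size factors (control 1.17 to 1.21, Al 0.802 to 0.932, from genes averaging at least 1 FPKM and never at 0). limma 3.58.1 in R 4.3.3 (lmFit, eBayes with trend) was run on the log2 of the scaled FPKM plus 0.1 for the 12889 genes that averaged 0.1 FPKM or more. The study's DESeq2 needs counts and was not run. The steps between FPKM values gave whole reads, within 1e-06, for 17684 of 17688 genes above 0 (99.98%), up to a common divisor, and limma's voom on those reads was an alternative that called 3296 genes higher and 3293 lower. The procedure was tested on simulated data. Replicates of a group differed beyond sampling noise (chi-square per gene 15.5 to 51.1 in control and 18.7 to 72.2 in Al), so none was a copy. Within-library ratios were compared by exact permutation tests in Python 3.11.15 with scipy 1.17.1.

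The 10 genes, the other lists and the pairs were chosen with earlier results of these data known, and 1 gene was left out of the lists and is not reported here. All 10 genes are named with their values. In each other list, every called gene was counted and the 2 called genes with the largest absolute log2 fold change and no overlap were named, together with Nfil3, Bhlhe40, Bhlhe41, Npas2, Rora, Ciart, Tef and Hlf, the genes that overlap a clock gene, and Thra. The other called genes, Rorb, Timeless, Ppargc1a and the single markers were named after their values were seen. Alternatives covered the scaling, pseudocount, filter, trend, thresholds, a replicate block, voom and each library left out.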

Additional observations from a re-analysis of the deposited data

How the results depend on the processing

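The number of clock genes called higher, 4, was 3 on FPKM as deposited and on TPM, where Nr1d2 was not called, and 4 under all other alternatives. The number called lower, 1, was 4 on FPKM as deposited and on TPM, 0 after quantile normalization, 0 with a pseudocount of 1 and 0 at an absolute log2 fold change over 1, and it ranged from 0 to 1 when 1 library was left out, with 0 without control replicate 1, Al replicate 1 or Al replicate 2. The wider clock genes called higher, 17, numbered 8 on FPKM as deposited, 6 on TPM and 10 at a log2 fold change over 1, and those called lower, 6, numbered 17, 19 and 3, and 10 after quantile normalization. With 1 library left out they ranged from 16 to 17 higher and from 5 to 7 lower. Signs turned for Arntl (0.022) and Cry1 (0.041) after quantile normalization, for Clock (-0.22 on FPKM as deposited, -0.52 on TPM), Per1 (-0.078 and -0.37) and, on TPM, Nfil3 (-0.27). The cause of these turns was not tested. The log2 difference of Per1 to Per2 was -1.64 with a pseudocount of 1, and that of Cry1 to Cry2 ranged from -0.034, without Al replicate 3, to 0.25 as 1 library was left out. Per3 was not called with a pseudocount of 1 (-0.47).

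Replicate numbers did not pair the libraries, as deviations of same-numbered control and Al libraries correlated at -0.03, -0.03 and -0.07. With the replicate number as a block, 4 clock genes were called higher and 1 lower, 17 and 6 of the wider clock genes, and 3352 and 3123 of all genes, and no call among the 10 clock genes changed. Npas2, Rora, Rorb and Hlf were under the filter on low values.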
